A study of Mus musculus with 32 samples.

Results

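The cytoplasmic ribosomal protein genes were taken as the protein-coding genes of both gene tables whose symbols begin with Rpl or Rps and a number or p, without pseudogene symbols and without the Rps6k kinases. This gave 85 of 38201 genes, 51 with an Rpl symbol (large subunit) and 34 with an Rps symbol (small subunit). The rule also took in Rps19bp1, which binds a ribosomal protein, Rpl7l1, a factor related to Rpl7 that acts in ribosome assembly, and tissue-restricted copies such as Rpl3l, Rpl10l and Rpl39l, and it does not reach Rpsa and Fau, which carry other symbols. Expression was measured by RNA-seq of poly(A)+ RNA in P19, a mouse embryonal carcinoma cell line. Each of 7 SR proteins, SRSF1 to SRSF7, was depleted with an esiRNA (a pool of short interfering RNAs cut from a long double-stranded RNA) for 36 h, and the control received an esiRNA against GFP. Every group has whole cell and cytoplasmic libraries, each as replicates A and B, which makes 32 libraries, and every group, the control included, was transfected. The study's methods call the replicates biological, and the p-values measure the spread between these libraries.

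Ribosomal proteins surround the ribosomal RNA in the small and large ribosomal subunits. Their genes are short and highly transcribed, and most of their mRNAs begin with a run of pyrimidines, the 5' terminal oligopyrimidine tract, through which their translation responds to growth signals. Several carry snoRNAs in their introns, and some make a poison exon or a retained intron through which the protein limits its own mRNA. SR proteins bind exonic sequences, take part in splicing and 3' end choice, and can link mature mRNA to the export receptor NXF1. Messages of this kind are abundant in fast-dividing cells such as embryonal carcinoma cells.

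The start regions of a few members that recur below are shown, with pyrimidine-rich letters marked in all but Rps19. Each window runs from 20 bases before to 10 bases after the start in the RefSeq tables (GRCm38.p6), with CTTTC or CTTCC, and in Rps19 TCGCGA, in capitals. Rpl5 lies at chr5:107900508-107900537 (+), Rps23 at chr13:90923102-90923131 (+), Rps24 at chr14:24490658-24490687 (+), Rpl22l1 at chr3:28805488-28805517 (+) and Rps19 at chr7:24884572-24884601 (+).
Rpl5: ctCTTTCtcacgtcgcttgcgtgctggtgg
Rps23: acggggccttcggctgggcggggCTTCCcg
Rps24: acgcccccgcgctggggtcCTTCCttgcgc
Rpl22l1: cgtgcgtgcggcgcaagcccgttctCTTCC
Rps19: agcactccgaaatcTCGCGAgactcgacgc
A start sequence was found for 64 of the 85 members. Within 20 bases either side of the start, CTTTC or CTTCC stood on the gene's strand in 31 of them (48.4%), against 15.8% of 27025 genes and 23.2% of 69 mitochondrial ribosomal protein genes. In the window from 250 bases before to 50 after the start, CCGGAAG on either strand was present in 25 members (39.1%), against 9.93% of all genes and 37.7% of the mitochondrial set. The palindrome TCGCGA was present in 14 members (21.9%), against 2.86% of all genes and 2.90% of the mitochondrial set. CACGTG was present in 6 members (9.38%) and in 8.09% of all genes. A match is a description of the letters, and no binding was measured.

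Gene values are the authors' scaled reads, estimated reads per gene brought to a common depth. Before that scaling the estimated reads of a library summed to between 26933889 and 40870309 for whole cell RNA and between 27713175 and 48585359 for cytoplasmic RNA. The targeted genes stood at 48.8% to 68.7% of GFP in the whole cell and at 37.8% to 77.0% in the cytoplasm, where SRSF2 was the highest. These are means of both replicates, and Srsf3 was less reduced in A than in B. In the whole cell it had 7145 and 4440 scaled reads in SRSF3 A and B, against 8695 and 8161 in GFP. Cytoplasmic values were 5720 and 3215 against 7172 and 6254. Embryonal carcinoma markers (Pou5f1, Sox2, Utf1, Lin28a, Dnmt3b and Zfp42, all detected) summed to 1896 to 3110 RPM, reads scaled to the library sum (whole cell), and 3425 to 5179 (cytoplasm). Cytoplasmic replicate A held more nuclear RNA than B (Malat1, Neat1, Meg3, Miat and Firre together 27.9 to 58.0 against 14.9 to 25.8 RPM, and 545 to 1022 in the whole cell), and fewer reads of epithelial markers (145 to 268 against 620 to 898). The epithelial markers were also lower in A in the whole cell (91.5 to 178 against 379 to 551 RPM). Pancreas acinar, liver, erythroid and skeletal muscle marker lists reached at most 19.3, 5.41, 10.1 and 9.62 RPM, each in the cytoplasmic SRSF5 A library. The cytoplasmic SRSF2 A library stood apart in the members, with Rps28, Rpl39 and Rps27 lower than in SRSF2 B by 1.4, 1.27 and 1.14 on the log2 scale, while the other 7 groups lay between -0.46 and 0.23 for these genes.

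Ribosomal protein mRNAs took a larger part of the cytoplasmic libraries than of the whole cell ones. Their summed share of whole cell reads was 5.48% to 6.77% with a mean of 6.10% ± 0.30 (SD, n = 16). In cytoplasmic reads it was 10.7% to 14.5% with a mean of 12.5% ± 1.24 (SD, n = 16). Every cytoplasmic library lay above every whole cell library, and the cytoplasmic share was 1.72 to 2.36 times the whole cell share of the same group and letter, with a median of 2.07 over 16 pairs. The 2 gene tables were scaled separately, and a share does not depend on that scaling. Mitochondrial ribosomal protein genes, of which there are 77, made up 0.42% of the whole cell and 0.71% of the cytoplasm (medians). In bulk samples a lower number of mRNAs per cell and fewer cells of a type cannot be told apart.

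**Figure D1:**
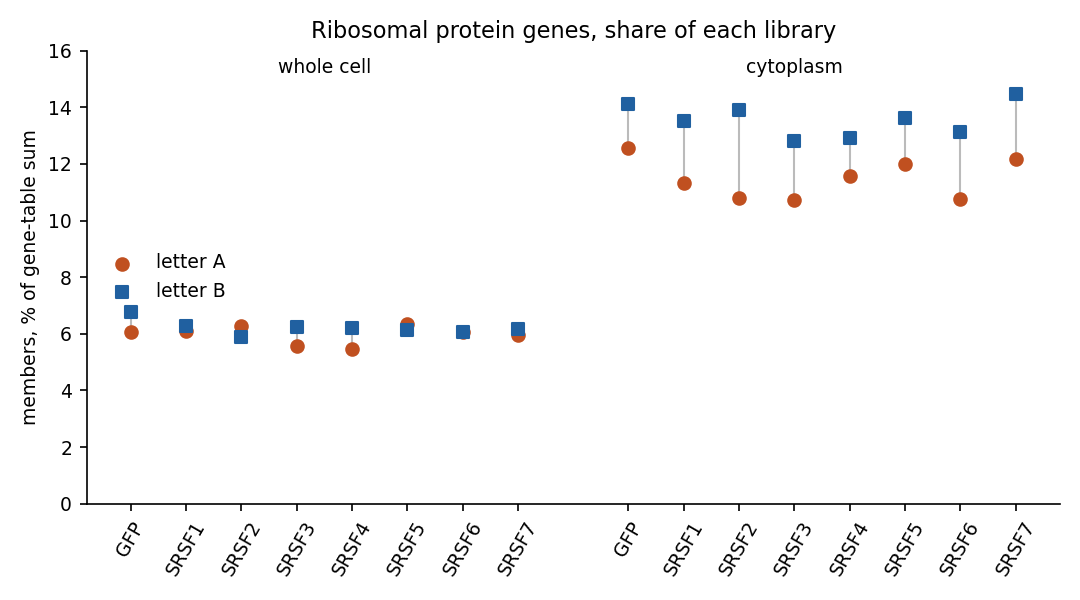
Summed share of the 85 ribosomal protein genes in each library, in percent of the sum of its gene table. Circles are replicate A and squares replicate B, joined within a group. Whole cell libraries lie between 5.48% and 6.77%, and in the cytoplasm A (10.7% to 12.6%) lies below B (12.8% to 14.5%) in 8 of 8 groups.

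In FPKM, which is per transcript length and was given by the authors once per condition, the members were among the most abundant messages. The GFP control had a median of 1416 FPKM over members in the whole cell and 3334 in the cytoplasm, and 61 and 75 members exceeded 1000. Rps27, a small-subunit protein with a zinc finger, was highest in both fractions, at 4979 and 13434 FPKM. Rplp1, one of the acidic stalk proteins that recruit translation factors, stood at 3475 FPKM in the whole cell, Rpl41, the shortest ribosomal protein, at 3546, and Rps24 of the small subunit at 3550. Rpl3, which lines the peptidyl transferase region, stood at 999, Rpl10, which joins late in large-subunit maturation, at 1013, and Rps6, the best known substrate of S6 kinase, at 1899. Rpl5 and Rpl11, which with 5S RNA bind MDM2, stood at 1825 and 2859. The lowest in the whole cell were Rps19bp1 at 35.1, Rps4l at 1.25, Rpl3l at 0.0712 and Rpl10l at 0.0545 FPKM, and Rpl39l was listed at 0.

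Paralogs of core members were minor throughout. In the GFP control Rpl22l1 reached 8.76% of the FPKM of Rpl22 in the whole cell and 7.38% in the cytoplasm, Rpl36al 28.3% and 21.9% of Rpl36a, Rps27l 5.11% and 4.66% of Rps27, and Rpl7l1 3.0% and 2.94% of Rpl7. Over the 8 conditions the Rpl22l1 share ran from 7.0% in SRSF1 to 12.3% in SRSF7 in the whole cell, and from 5.65% in SRSF4 to 10.8% in SRSF3 in the cytoplasm. Rps4l, a copy of the X-linked Rps4x, stood at 0.113% and 0.129% of it, and it was lowest in SRSF1 and highest in SRSF2 in both fractions. Such copies share sequence with their partners and with processed pseudogenes, and how the authors' counting divided those reads was not tested. Genes with pseudogene symbols summed to 0.675% to 0.851% of the whole cell libraries and 1.31% to 1.84% of the cytoplasmic ones.

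The higher cytoplasmic share was spread over nearly all members but differed in size between them. Of 81 members with at least 10 RPM in the whole cell, 80 had a median ratio of cytoplasmic to whole cell share above 1, and 73 had it above 1 in all 16 pairs. The median member stood at 2.18, against 0.797 for 9408 protein-coding genes, of which 40.2% lay above 1. Highest were Rps14 at 3.0 (2.53 to 3.79) and Rps2 at 2.87 (2.37 to 3.43), both of the small subunit, and then the stalk proteins Rplp2 at 2.82 and Rplp1 at 2.78. The third stalk component, Rplp0, stood at 2.69. These ratios are given as a description, since all members of a pair share the same 2 libraries.

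At the low end Rpl23, which can bind MDM2, had a median ratio of 0.93 (0.80 to 1.14) and lay above 1 in 5 of 16 pairs. Rpl5 stood at 1.02 with 9 of 16 above 1, Rpl4, whose loop reaches into the exit tunnel, at 1.08 with 12, and Rpl30 at 1.15 with 15. Ratios from exon-bin reads were close to these, at 0.94 for Rpl23 and 0.99 for Rpl5. The ranges of Rpl23, Rpl5, Rpl4 and Rpl30 overlap, and they do not overlap that of Rps14. Among other lists the median ratio was 1.77 for 77 mitochondrial ribosomal protein genes, 1.85 for 19 other oligopyrimidine-tract genes and 1.02 for 31 ribosome assembly factors.

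**Figure D2:**
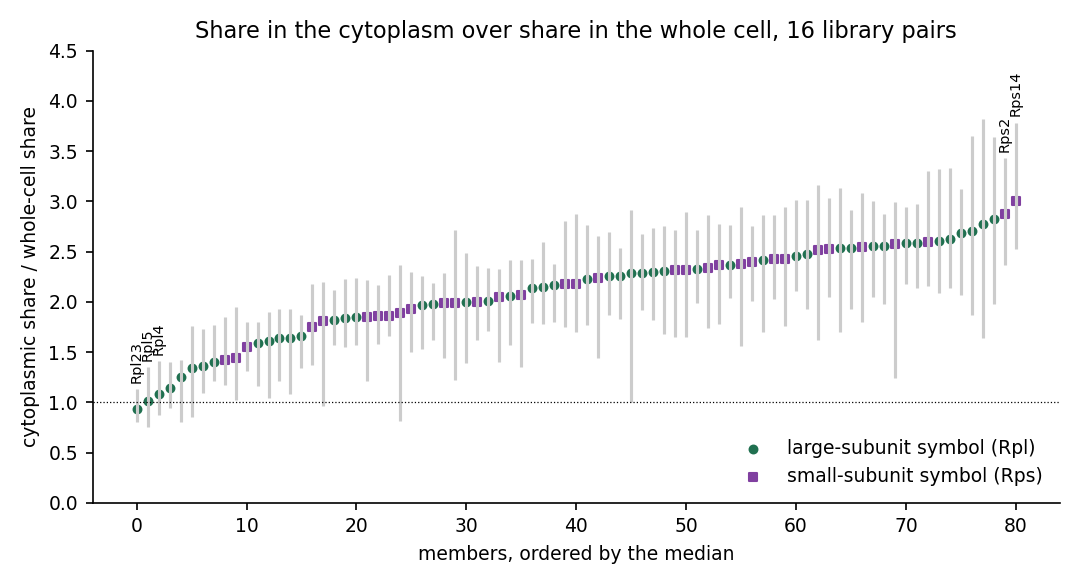
Cytoplasmic share divided by whole cell share for 81 members, ordered by the median of 16 library pairs. Symbols are medians, vertical lines the lowest and highest pair, and the dotted line marks a ratio of 1. Rpl23 lies lowest at 0.93 and Rps14 highest at 3.0.

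The knockdown comparisons asked which ribosomal protein mRNAs change when 1 SR protein is depleted. By limma, with Benjamini-Hochberg adjustment over all genes tested, no member passed an adjusted p of 0.05 in any of the 14 comparisons with GFP. Tested were 82 members in the whole cell among 18540 genes, of which 0.804% passed in SRSF1, 0.0216% in SRSF2, 11.4% in SRSF3, 0% in SRSF4, SRSF5 and SRSF6, and 0.0162% in SRSF7. Cytoplasmic tests covered 83 members among 17566 genes, of which 0.0455% passed in SRSF1, 0.529% in SRSF3 and 0% in the other 5 knockdowns. At an unadjusted p under 0.05 limma had 17 of the 1155 tests of members (1.47%), against 7.86% of 252742 tests over all genes. Of these tests 1142 lay within 0.5 of zero on the log2 scale (98.9%). edgeR called none of 83 members in these comparisons, and DESeq2 called 1, Rps23 in the SRSF3 whole cell, where edgeR passed 11.3% and DESeq2 15.4% of all genes. In the other 13 comparisons edgeR passed between 0% and 0.771% of all genes, and DESeq2 between 0% and 3.86%. The 7 comparisons of a fraction share their GFP libraries. Each sets 2 libraries against 2, and the limma model held no letter term. The median SE of a member's log2 difference was then 0.108 in the whole cell and 0.217 in the cytoplasm.

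Median log2 differences were small. Whole cell medians were 0.00 in SRSF1, -0.03 in SRSF2, -0.08 in SRSF3, -0.09 in SRSF4, 0.01 in SRSF5, -0.08 in SRSF6 and -0.06 in SRSF7. Cytoplasmic medians were -0.04, -0.10, -0.20, -0.04, -0.03, -0.22 and 0.06 in the same order. The 2 lowest medians, in the cytoplasm of SRSF3 and SRSF6, came with 72 and 81 of 83 members below 0, which is a count over genes of the same libraries. Without SRSF2 A the cytoplasmic SRSF2 median was 0.15 and no member passed, and without SRSF2 B it was -0.30. The latter leaves only the SRSF2 library that stands apart, which the model assumes to vary like the other groups, and 2 members passed beside 1.16% of all genes.

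**Figure D3:**
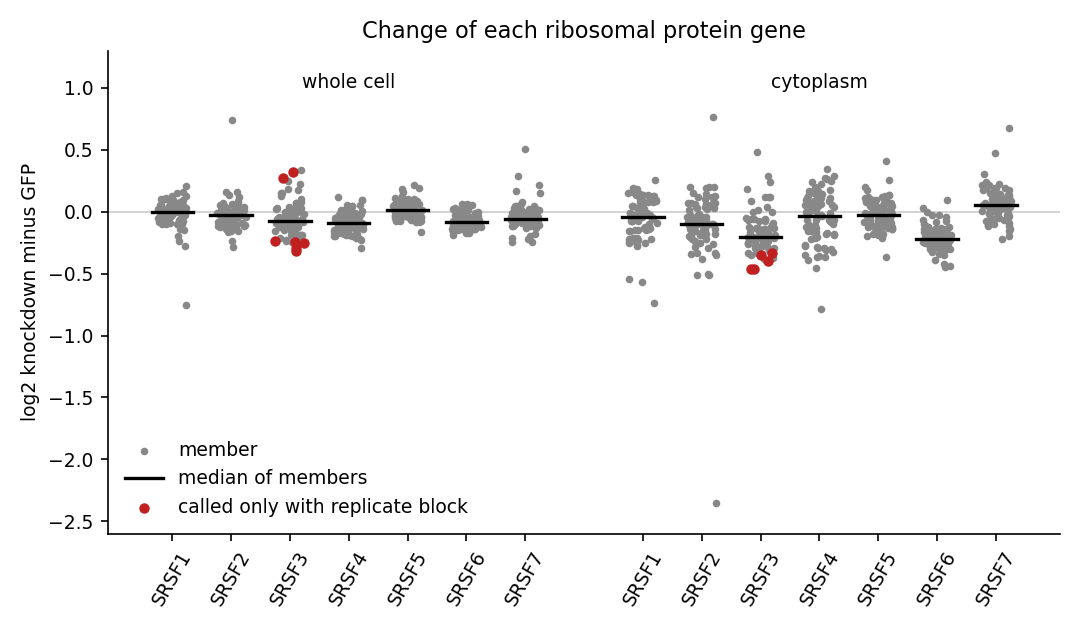
Log2 difference, knockdown minus GFP, of each tested member in 7 knockdowns and both fractions. Gray points are members, black bars their medians, and red points the members that passed only with the replicate letter in the model (7 in the SRSF3 whole cell, 5 in the SRSF3 cytoplasm). The lowest point is Rpl3l in the cytoplasm of SRSF2, a gene with at most 6.90 scaled reads in these libraries.

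SRSF3 depletion came nearest to a change. Rps23, a small-subunit protein at the decoding centre, was at 16097 and 17657 scaled reads in SRSF3 A and B and at 19535 and 22234 in GFP in the whole cell. Both knockdown libraries lay below both controls, with a log2 difference of -0.32 (SE 0.10, limma adjusted p = 0.0564). With the replicate letter as a block in limma, Rps23 passed (adjusted p = 0.0107), as did Rpl26, Rpl22, Rpl35a and Rpl8, which were lower by 0.29, 0.26, 0.25 and 0.24, and Rpl7a and Rpl7l1, which were higher by 0.27 and 0.32. These are 5 of 82 members lower and 2 higher, and the same model passed 17% of all genes lower and 16.1% higher, 33.2% in all.

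In the cytoplasm the block passed 5 of 83 members in SRSF3, all lower, against 13.9% of all genes in either direction, of which 6.76% lower and 7.19% higher. Rps23 had 25376 and 37180 scaled reads in SRSF3 A and B and 36490 and 48659 in GFP, so the groups overlap while each knockdown library lies below the GFP library of its letter (log2 -0.46, limma adjusted p = 0.621 without and 0.0155 with the block). Rpl35a was at 20551 and 22209 against 25388 and 33913 (log2 -0.46), with no overlap between the groups. Rpl19, Rpl26 and Rpl6, all of the large subunit, were lower by 0.40, 0.35 and 0.33. In the other 12 comparisons the block passed no member, beside 10.9%, 6%, 0.0108%, 0.00539%, 0.0216% and 1.09% of all genes in SRSF1, SRSF2, SRSF4, SRSF5, SRSF6 and SRSF7 in the whole cell, and 5.9%, 1.84%, 0.0114%, 0%, 0.0911% and 0.074% in the cytoplasm.

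Other members with the lowest p in each comparison did not pass with either model, and are given as values. Whole cell Rps24 stood at 28074 and 31405 scaled reads in SRSF1 and at 27755 and 29386 in SRSF2, against 31854 and 38323 in GFP (log2 -0.23 and -0.29). Rps19, the small-subunit protein mutated in Diamond-Blackfan anaemia, was at 12925 and 12094 in SRSF2 against 13973 and 15527 (log2 -0.23). Rps26, which lies near the mRNA exit channel, was at 15676 and 15831 in SRSF1 against 12240 and 15267 (log2 0.21). In both Rps19 and Rps24 the SRSF2 libraries lay below both controls.

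Further whole cell differences at the head of the list were between -0.24 and 0.18. They were Rps21 (log2 -0.23) and Rps23 (-0.21) in SRSF4, and Rps19bp1 (0.18) and Rps26 (0.12) in SRSF5. In SRSF6 they were Rps15a (-0.17) and Rps27a (-0.17), the latter made as a fusion with ubiquitin. In SRSF7 they were Rplp2 (-0.24), Rpl36 (-0.24) and the retrogene Rps27rt (-0.21). Every one had a limma adjusted p of at least 0.75.

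Cytoplasmic Rpl22l1, a paralog of Rpl22, lay below GFP in 3 knockdowns and above it in 2, without passing in any. It stood at 1705 and 1954 scaled reads in GFP, at 1174 and 1293 in SRSF1, at 905 and 1266 in SRSF4 and at 1603 and 1273 in SRSF5. The SRSF1, SRSF4 and SRSF5 libraries all lay below both controls, with log2 differences of -0.56 (SE 0.23, limma adjusted p = 0.461), -0.78 (0.917) and -0.36 (1). SRSF3, at 2171 and 2005, and SRSF7, at 2198 and 2072, lay above both controls (log2 0.19 in each). Rps4l had 71.3 and 76.1 scaled reads in GFP, 158.7 and 100.7 in SRSF2, 98.1 and 98.98 in SRSF5, 101.8 and 144.3 in SRSF7 and 41.5 and 60.5 in SRSF1. Those log2 differences of 0.77, 0.41, 0.68 and -0.54 did not pass, and in the whole cell the SRSF1 and SRSF2 values for Rps4l were -0.75 and 0.74.

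Rps19bp1 was at 1255 and 1533 scaled reads in the SRSF6 cytoplasm and at 2451 and 2933 in SRSF7, against 1682 and 2125 in GFP (log2 -0.44 and 0.47). Neither passed. Further cytoplasmic values at the head of the list were Rps7 in SRSF1 (log2 -0.27), Rpl14 in SRSF3 (-0.35), Rpl21 and Rpl4 in SRSF4 (-0.30 and -0.37), Rpl41 in SRSF5 (0.26), Rplp0 and Rplp2 in SRSF6 (-0.30 and -0.43) and Rpl37a in SRSF7 (0.30). In SRSF2 Rps27 was at 14360 and 32223 scaled reads against 30044 and 31130. Its log2 difference of -0.51 (limma adjusted p = 0.796) was 0.08 without SRSF2 A, and -1.11 without SRSF2 B, where only the library that stands apart is left. Rpl3l, a muscle form of Rpl3, had 0 and 1.08 scaled reads in SRSF2 against 6.90 and 5.85, too few to read a fold from.

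Differences over 0.5 on the log2 scale were found 13 times, in Rpl22l1, Rpl39, Rpl3l, Rps27, Rps28 and Rps4l. Of these, Rpl39, Rps27 and Rps28 exceeded it in the cytoplasm of SRSF2 alone. Rpl3l, Rps4l and Rpl22l1 were among the least abundant members.

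The 2 fractions were compared to ask whether the knockdown changed the cytoplasm by another amount than the whole cell. In a limma interaction over all 32 libraries, 83 members were tested among 19186 genes in each knockdown, and no member passed. Of all genes 0.00521% passed in SRSF3 and 0% in the other 6. One member had an unadjusted p under 0.05, in SRSF2, and edgeR and DESeq2 called no member. With the replicate block no member passed either, beside 0.0156% of all genes in SRSF1, 0.678% in SRSF3 and 0% in the other 5. Median differences of the log2 change were -0.03 in SRSF1, -0.07 in SRSF2, -0.13 in SRSF3, 0.06 in SRSF4, -0.03 in SRSF5, -0.16 in SRSF6 and 0.12 in SRSF7.

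Few genes of other ribosome-related lists passed, while 11.4% of all genes did in the SRSF3 whole cell and 0.804% in the SRSF1 whole cell. Of 77 mitochondrial ribosomal protein genes, 2 rose in the SRSF3 whole cell and none passed in the other 13 comparisons. Of 20 other oligopyrimidine-tract genes tested in the whole cell, 1 rose in SRSF1 and 1 fell in SRSF3. Of 31 ribosome assembly factors 1 rose in the SRSF3 whole cell, and none of 11 regulators (among them Myc, Mtor and Larp1) passed. In the SRSF3 whole cell the median log2 difference was 0.16 for the mitochondrial set and -0.08 for the cytoplasmic one, beside -0.00 for all genes.

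Many members differed between the replicate letters in the cytoplasm. In a model of group and letter, 63 of 83 members were lower in A than in B and none was higher (limma), while 25.7% of all genes tested were lower and 26.2% higher. The median member was 0.28 lower on the log2 scale, against 0.01 lower for all genes. Either direction together held 51.9% of all genes. Whole cell tests gave 7 members higher and 7 lower, of 82, beside 19% and 20.3% of all genes (39.3% together), and the median was -0.00. Leaving SRSF2 A out changed the number of called members little in either fraction, and the share of all genes was not taken for that fit. The 8 libraries of a letter may share a day or a preparation, which the labels do not say, so they are not independent repeats of a letter.

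Rps20 of the small subunit had a mean of 35364 ± 3730 scaled reads (SD, n = 8) in cytoplasmic A and 52977 ± 4541 in B, lower in 8 of 8 groups (log2 -0.59, SE 0.07, limma adjusted p = 3.65e-06). Rps23 was at 31123 ± 3760 and 45443 ± 4984 (log2 -0.55), also in 8 of 8 groups. Rpl26, Rpl10a and Rps18 followed at -0.49, -0.48 and -0.47. Whole cell Rps20 and Rps23 differed between the letters by -0.02 and -0.05 and did not pass.

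Whole cell differences between the letters ran in both directions. Rps27l, a paralog of Rps27 known as a p53 target, was at 2597 ± 165 scaled reads in A and 2106 ± 98.6 in B (log2 0.30), lower in A in 0 of 8 groups. Rpl37a, Rpl7l1, Rpl41 and Rpl7a were higher in A by 0.26, 0.24, 0.21 and 0.21. Rpl17, Rpl28, Rpl30 and Rpl22 were lower in A by 0.17, 0.16, 0.14 and 0.14. Assembly factors ran the other way from the members in the cytoplasm, with 18 higher and 1 lower of 31 (median 0.33), and mitochondrial ribosomal protein genes split into 10 higher and 25 lower of 77. The part of nuclear RNA and of the epithelial markers, which also differ between the letters, was not tested.

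**Figure D4:**
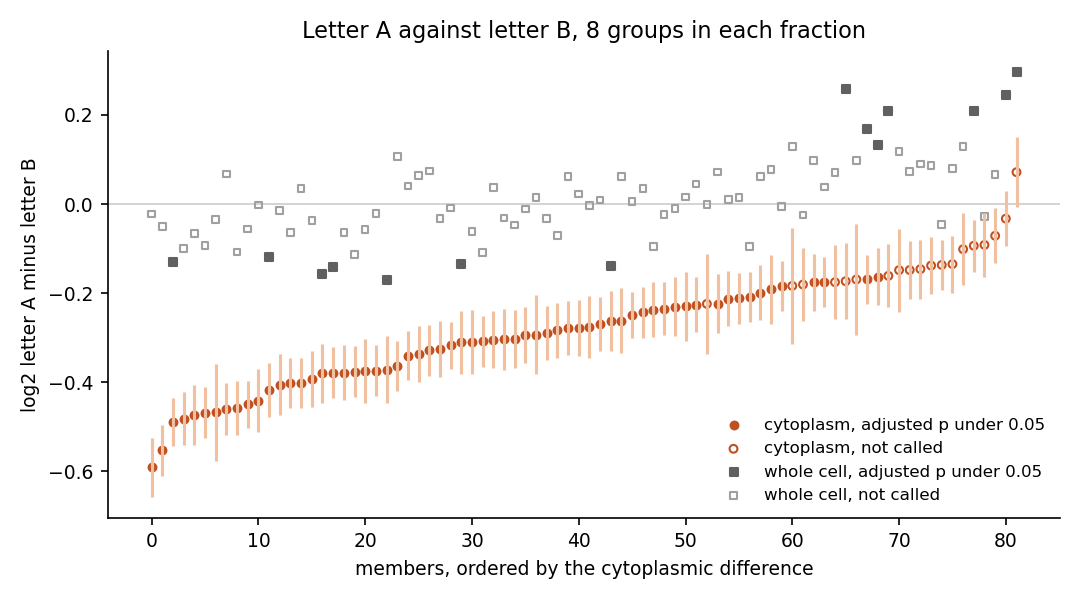
Log2 difference of letter A minus letter B for the 82 members tested in both fractions, ordered by the cytoplasmic value. Circles with lines (± 1 SE) are the cytoplasm and squares the whole cell, filled where the limma adjusted p is under 0.05. Cytoplasmic values run from -0.59 for Rps20 to 0.07 for Rps27l.

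Exon bins, the pieces into which the authors' annotation cuts each gene, gave a readout other than the level. A bin was tested by limma's diffSplice as its log2 change relative to the other bins of its gene, over all bins with a mean of at least 5 reads. Whole cell tests covered 963 member bins of 80 genes among 181094 bins, and 25 calls were made over the 7 knockdowns, 22 higher and 3 lower (0.0734% and 0.0619% of all bins), in 18 bins of 15 genes. The count was 12 in SRSF1 (1.25% of member bins, against 0.242% of all bins), 4 in SRSF2 (0.415% against 0.0939%), 4 in SRSF3 (0.415% against 0.554%), 1 in SRSF6 (0.104% against 0.00607%) and 4 in SRSF7 (0.415% against 0.0503%). SRSF4 and SRSF5 had none, with 0% of all bins. At an unadjusted p under 0.05 these 2 had 20 and 14 member bins (2.08% and 1.45%), against 1.81% and 1.6% of all bins. Bins of 1 gene share its reads, and highly expressed genes have narrower errors, so the shares are a description.

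Cytoplasmic tests covered 846 member bins among 150099, and 5 passed, 1 in SRSF1 (0.118% against 0.0993% of all bins) and 4 in SRSF2 (0.473% against 0.054%). The other 5 knockdowns had none, beside 0.364% of all bins in SRSF3, 0.00133% in SRSF4, 0% in SRSF5, 0.00133% in SRSF6 and 0.0133% in SRSF7. Between 1 and 19 member bins had an unadjusted p under 0.05 in each of these 5 (0.118% to 2.25%, against 0.987% to 3.78% of all bins). With the replicate block the whole cell calls were 18, 8, 21, 0, 0, 4 and 8 in SRSF1 to SRSF7, beside 0.444%, 0.213%, 1.05%, 0%, 0%, 0.0144% and 0.146% of all bins. The cytoplasmic calls were then 9, 14, 1, 0, 0, 1 and 1, beside 0.28%, 0.2%, 1.11%, 0.004%, 0.000666%, 0.00533% and 0.044%.

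Of the 30 calls, 4 passed with any 1 of the 4 libraries of the comparison left out. They were Rpl5 in the SRSF1 and SRSF7 whole cell, the main intron bin of Rpl9 in the SRSF2 whole cell, and a retained-intron piece of Rps20 in the SRSF3 whole cell. Each of the other 26 was lost without at least 1 library, most often without knockdown A or control B. Bins named below beyond the largest 5 of a fraction, Rpl3, Rpl12, Rpl22l1 and Rps24 were chosen after their values were seen.

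The sequences at 3 such places are shown to mark the sites, read through the annotated exons of NCBIM37. The first shows an exon of 3 bases in Rps24 (capitals, chr14:25314639-25314668, +), with AG before and GT after it. Next are the donor and acceptor of the last intron of Rpl9, of 120 bases, which lies after the stop codon (GT and AG in capitals, chr5:65779781-65779810 and chr5:65779671-65779700, -). The last is the end of the shorter last exon of Rpl5 with its AATAAA signal (capitals, chr5:108337045-108337074, +).
Rps24: gccactgattcagTGAgtggagattggata
Rpl9 donor: gaggcctcagGTgggtgcccatgtctgcag
Rpl9 acceptor: catgtgtgtttgttttacAGttcctggccc
Rpl5: agacAATAAAcatattgatcaagcagcttt

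Reads beyond the usual 3' end of Rpl5 increased in 3 knockdowns. This bin of 950 bases (chr5:107908056-107909005, mm10, +) belongs to 1 protein-coding transcript with an extended last exon, and it was counted in a unit shared with an overlapping gene. Whole cell libraries had 0.680% and 0.730% of the unit's reads there in GFP A and B, 3.06% and 2.04% in SRSF1, 1.88% and 1.37% in SRSF6 and 2.50% and 1.69% in SRSF7. All 6 knockdown libraries lay above both controls, and the log2 changes relative to the other bins were 1.83 (limma adjusted p = 2.56e-15), 1.19 (3.16e-05) and 1.54 (3.35e-10). The other 4 knockdowns ranged from 0.10 to 0.40 and did not pass.

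In the cytoplasm the same bin took 0.434% and 0.348% in GFP, 1.76% and 0.832% in SRSF1, 1.27% and 0.691% in SRSF6 and 1.49% and 0.824% in SRSF7. The SRSF1 change of 1.62 passed (limma adjusted p = 0.00366), and those of SRSF6 (1.26) and SRSF7 (1.5, adjusted p = 0.0518) did not. With the replicate block all 3 passed. The gene value of Rpl5 did not pass in any knockdown.

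Extended last exons of some other members were also higher in SRSF1. Of the 25 whole cell calls, 9 were in the bin nearest the 3' end of its gene, and all 9 were higher. Over all genes 19.7% of the 1715 calls were in such bins, and 34% of those were higher. SRSF3 held 250 of these 338 calls over all genes, 56 of them higher, and no member call. The member calls were 5 in SRSF1, 1 in SRSF6 and 3 in SRSF7. Over all genes 31 of 55, 2 of 2 and 16 of 18 calls in such bins were higher there. Of the tests of such bins 1.95% passed as higher in the members and 0.173% over all genes. Rps20, in a 3136-base bin (chr4:3831334-3834469, mm10, -), took 0.292% and 0.279% of its unit's reads in GFP, 1.10% and 0.742% in SRSF1 and 0.829% and 0.585% in SRSF7 (log2 1.64 and 1.31). SRSF6 stood at 0.856% and 0.572%, and its change of 1.29 did not pass (limma adjusted p = 0.0622) but did with the block. Rpl12 (log2 1.17), which sits at the base of the stalk, Rpl27a (1.01) and Rpl15 (0.75) were also higher in SRSF1, and Rpl15 in SRSF7 (1.10). Over the 66 such bins tested the median change in SRSF1 was 0.04, with 43 above 0. In the other knockdowns it ran from 0.03 in SRSF4 (41 above 0) to 0.09 in SRSF6 (49 above 0). SRSF7 stood at 0.08 with 51 above 0.

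The last intron of Rpl9, a large-subunit protein of the L6 family, was read more often in SRSF2 and SRSF1. Its main bin (116 bases, chr5:65388446-65388561, mm10, -) took 0.274% of the gene's reads in both whole cell GFP libraries, 1.24% and 0.736% in SRSF2 and 0.913% and 0.491% in SRSF1 (log2 1.74 and 1.26). The limma adjusted p was 2.28e-07 and 5.83e-04. The 4-base bin beside it rose by 1.72 in SRSF2. In the other 5 knockdowns the main bin changed by -0.25 to 0.23 and did not pass.

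This intron was also found in the cytoplasm. There it took 0.227% and 0.258% in GFP, 1.10% and 0.669% in SRSF2 and 0.751% and 0.488% in SRSF1, with a log2 change of 1.88 in SRSF2 (limma adjusted p = 0.00171) and 1.28 in SRSF1, which passed only with the block (adjusted p = 0.00184). The bin averaged 371 reads per cytoplasmic library, while bins of the other introns with 200 or more bases averaged between 0.875 and 5.63. Since SRSF2 A stands apart, the SRSF2 value was also taken without it, and was 1.39 (adjusted p = 0.071). Bins Rpl9 E022 (46 bases, coding side) and Rpl10 E006 (77 bases) fell by 1.43 and 1.5 in cytoplasmic SRSF2, and without SRSF2 A the values were -0.27 and -0.67.

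**Figure D5:**
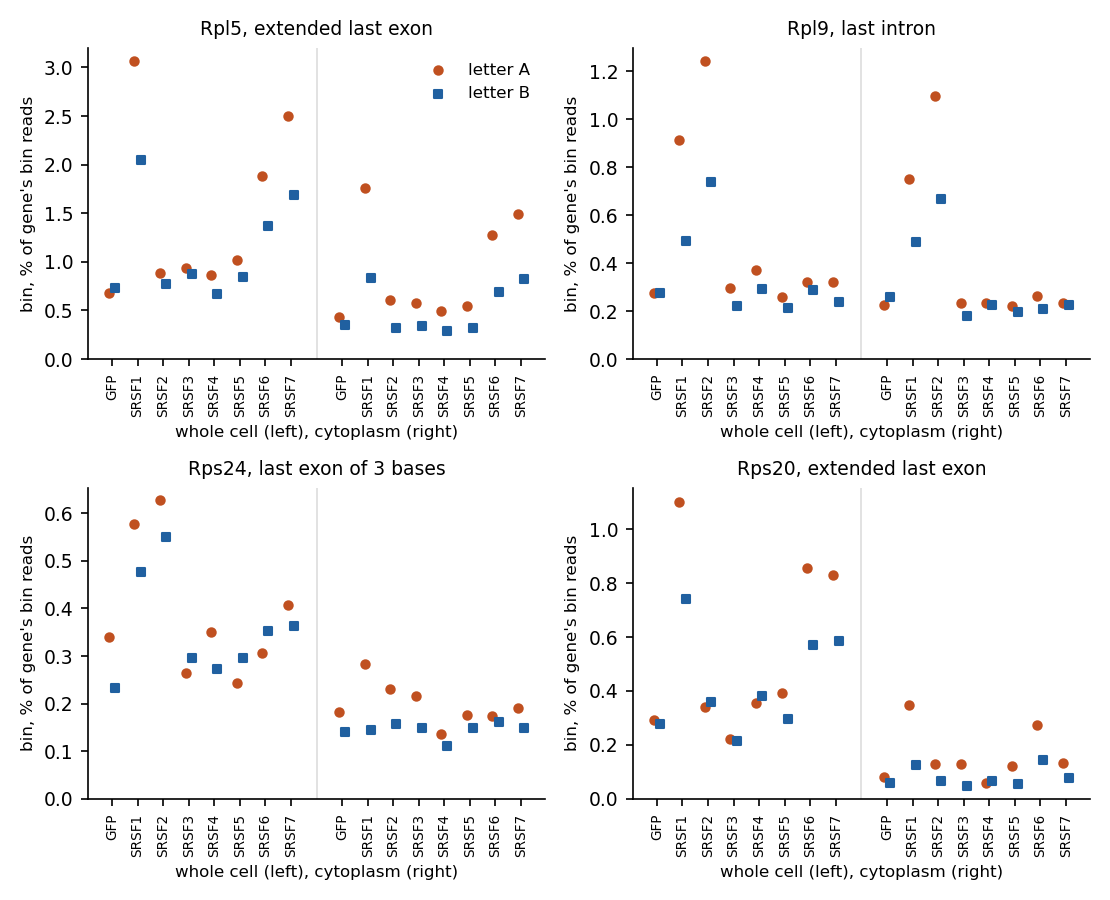
Share of the exon-bin reads of a gene (for Rpl5 and Rps20, of the unit shared with an overlapping gene) that lie in 1 bin, in percent, for each library, with the whole cell at the left and the cytoplasm at the right of each panel. Circles are replicate A and squares replicate B. Rpl5 is high in SRSF1, SRSF6 and SRSF7, Rpl9 in SRSF1 and SRSF2, and in the whole cell Rps24 in SRSF1 and SRSF2 and Rps20 in SRSF1, SRSF6 and SRSF7. In the cytoplasm Rps20 lies above both controls in SRSF1 and SRSF6, and in SRSF7 only in A. The 3-base exon of Rps24 is not the bin nearest the 3' end of its gene.

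Rps24 makes isoforms that differ in short exons near the 3' end, where a 372-base bin lies downstream of a 3-base exon. Its 3-base exon (chr14:24495430-24495432, mm10, +) took 0.339% and 0.234% of the gene's reads in whole cell GFP, 0.578% and 0.477% in SRSF1 and 0.628% and 0.550% in SRSF2. All 4 knockdown libraries lay above both controls (log2 0.93 and 1.10, limma adjusted p = 0.00359 and 5.52e-04). A bin this short counts reads that also cover its neighbours. In the cytoplasm the changes were 0.38 and 0.41 and did not pass. The other 5 bins of Rps24 did not pass in either fraction.

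Introns and short bins of further members also changed in the whole cell. In SRSF3 a 69-base piece of Rps20 found in a retained-intron transcript took 0.524% and 0.134% of the unit's reads against 0.0325% and 0.0169% in GFP (log2 3.35), and a 1923-base bin of Rpl18 rose by 2.96 from 2 reads in each control. Rps2 rose by 0.99 in a retained-intron bin, and Rps15a rose by 0.96 in SRSF7 in a 3236-base bin. In SRSF1 a retained-intron bin of Rps21 rose by 1.73. Bins of 362 bases and of 1 base in Rpl13a, known from the GAIT complex, rose by 0.88 and 0.95. With the block the Rps15a bin also passed in SRSF1, SRSF2 and SRSF6 (log2 0.59, 0.62 and 0.88) and the Rps21 bin in SRSF3 (1.18).

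Rps19 moved in opposite directions. An 81-base bin found in nonsense-mediated decay and retained-intron transcripts (chr7:24886107-24886187, mm10, +) took 0.769% and 1.08% of reads in whole cell GFP, 0.364% and 0.633% in SRSF1 and 1.85% and 1.79% in SRSF2. It fell by 0.97 in SRSF1 and rose by 0.94 in SRSF2 (limma adjusted p = 0.0236 and 0.0337). Both calls were lost among bins with a mean of at least 20 reads (adjusted p = 0.0895 and 0.0882). In the cytoplasm the same order held, at 0.606% and 0.810% in GFP, 0.275% and 0.394% in SRSF1 and 1.86% and 1.31% in SRSF2. These changes of -1.03 and 1.34 passed only with the block (limma adjusted p = 0.049 and 0.00115), as did a whole cell change of -0.63 in SRSF3 (0.0157).

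Of the members whose bins were followed in full, none of 9 tested bins of Rpl3 passed in either fraction, and their changes lay between -0.17 and 0.09. None of the 3 of Rpl22l1 passed, with changes between -0.33 and 0.33. Of 20 bins of Rpl12, 1 passed in the whole cell, the extended last exon, and none in the cytoplasm. With the block 3 passed in the whole cell and 2 in the cytoplasm, the latter being the extended last exon in SRSF1 (log2 0.97) and a 32-base bin in SRSF2 (-1.24).

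In the cytoplasm of SRSF2 the bins nearest the 3' end stood higher as a group, with a median change of 0.33 and 66 of 71 above 0. The other knockdowns, compared with the same GFP libraries, had medians from 0.04 (SRSF1) to 0.14 (SRSF4). Between 42 (SRSF1) and 58 (SRSF6) of their 71 bins lay above 0. Without SRSF2 A the SRSF2 median was 0.03 with 44 of 71 above 0, and without SRSF2 B it was 0.64. In that A library the members with the shortest coding lengths were also the most reduced against B, by a median of 0.59 on the log2 scale for lengths of 156 to 399 bases, 0.46 for 402 to 567 and 0.34 for 579 to 1272. In the GFP pair the same medians were 0.16, 0.19 and 0.16 lower. Whether RNA quality had a part in this was not tested.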

How the data were processed

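Poly(A)+ RNA-seq of 32 libraries was used, and the submitters' notes name Cufflinks 2.1.1, Bowtie2 2.1.0, TopHat2 (2.0.9, 2.0.10), cutadapt and, for base calling, CASAVA 1.8.2. The gene tables hold a signal that the authors made as estimated reads per gene times a factor per library. The exon-bin tables (mm10) hold a signal deposited by the authors as reads divided by a factor, and division by the step returned whole reads for 100% of values to within 0.01. FPKM values were deposited by the authors as 1 value per condition. The authors' own fold changes, p-values and isoform estimates were not used.

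Gene values were tested with limma 3.58.1 on log2(value + 1) with TMM factors, filterByExpr and a variance trend, over all 16 libraries of a fraction. For exon bins, diffSplice with vooma weights was run on those averaging 5 or more reads. Genes or bins passed at a Benjamini-Hochberg adjusted p under 0.05 over all tested. A fold change on this scale understates changes of low genes. edgeR 4.0.16 and DESeq2 1.42.0 were run on gene sums of the whole exon-bin reads, since larger values of the gene tables are not whole. R 4.3.3 and Python 3.11.15 were used, and the models were tested on simulated data.

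A minus B differences correlated between every pair of groups (Spearman 0.238 to 0.814 in the whole cell, 0.449 to 0.827 in the cytoplasm, 28 pairs each), so equal letters pair the libraries. The models for knockdowns hold no letter term, and values with the letter as a block are given where they change a call. Members and lists were chosen with earlier results of these data known. Named members are those with known roles or paralogs, the up to 5 called in each direction with the largest change or else the 3 with the lowest p, and the called bins. Some genes that this rule names are not reported here.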

Additional observations from a re-analysis of the deposited data

Results flagged for a closer look

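Rplp0, the scaffold of the ribosomal stalk, was the only 1 flagged of 24 members checked over 7 knockdowns. By share of reads, both SRSF4 libraries lay on one side of both controls in the whole cell and on the other in the cytoplasm. In scaled reads whole cell Rplp0 was at 70076 in SRSF4 A and 64904 in SRSF4 B, above and below both controls (69914 and 68499). In SRSF4 against GFP its log2 difference of mean shares of reads was -0.07 in the whole cell and 0.14 in the cytoplasm, which differ by 0.21. In the limma interaction the difference was 0.28 (SE 0.20) with an adjusted p of 1, so it did not pass.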

How the results depend on the processing

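With 2 libraries per group, the models without the letter had a median SE of 0.108 to 0.217 on the log2 scale. In them small changes of members could not be told from replicate spread, which includes the difference between the letters. The replicate block moved the count of called members in SRSF3 from 0 to 7 in the whole cell and to 5 in the cytoplasm, and of member bins from 25 to 59 in the whole cell and from 5 to 26 in the cytoplasm, and it changed no other count of members. DESeq2 called 1 member in the SRSF3 whole cell. With only the libraries of each comparison in the fit, 8 cytoplasmic member bins passed, and the share of all bins was not taken. Shares from exon-bin sums had medians of 7.66% in the whole cell and 15.5% in the cytoplasm. Leaving out 1 library gave 0 to 1 called members in the SRSF3 whole cell (1 without SRSF3 B), 0 to 2 in the SRSF2 cytoplasm and 0 to 2 in the SRSF2 interaction (2 without cytoplasmic SRSF2 B). It gave 4 to 42 member bins in the whole cell (4 without knockdown A, 42 without knockdown B, 13 and 10 without control A and B) and 0 to 100 in the cytoplasm (100 without knockdown B, 0 without each of the others). Of the 30 bin calls, 30 passed with other size factors, 30 with the block, 26 of 29 with a mean of at least 20 reads, 18 with only the libraries of the comparison, 13 and 10 without control A and B, and 4 of 29 and 27 of 30 without knockdown A and B. Of single members, leaving out 1 library turned the sign of Rps19bp1 (-0.00322 to 0.36) and Rps26 (-0.0398 to 0.28) in the SRSF5 whole cell, of Rps27 in the SRSF2 cytoplasm (-1.11 to 0.0818) and interaction (-0.99 to 0.17), and of Rpl3l in the SRSF5 interaction (-0.42 to 2.1). For the bin counts with 1 library left out, the share of all bins was not taken. Those counts therefore do not set the member bins apart from bins of other genes. In the gene tests a larger share of all genes also passed without SRSF3 B (whole cell) and without SRSF2 B (cytoplasm). With 1 library left in a group, it is assumed to vary like the other groups. The cause was not tested. Of the other counts and shares, 177 under another setting and 113 with a library left out stayed within 1.5 times or the replicate spread. Leaving out SRSF2 A or both SRSF2 libraries for the letters, and each SRSF2 library for the 3' bins, was chosen after seeing the data.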
